A study of Homo sapiens with 6 samples.

Results

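Zinc finger genes of the ZNF series were followed in SKOV3 cells, an established human ovarian carcinoma line, grown either attached or in a low-attachment culture with the additive FP001. The genes are those whose platform symbol is ZNF followed by a number, with an optional letter. Each was read on its brightest probe set, and 261 of 471 such genes had a mean of at least 6 on the log2 scale over the 6 arrays. These 261 are called the expressed ZNF genes here, out of 14884 named genes on the array. They were selected on their name and their level over all 6 arrays, so that level is a description. The rule does not use the difference between cultures, but the group of genes was proposed with earlier results of these data known.

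The 2D group (n = 3 arrays) was grown for 11 days on ordinary attachment plates as the control, and the 3D group (n = 3) for 11 days on low-attachment plates in medium containing FP001 at 0.015% (w/v). Both groups had the same serum-supplemented McCoy's 5A medium, and plate and additive changed together, so the effect of one cannot be told apart from that of the other. FP001 is known here by its code name alone. Nothing in the labels tells separate cultures from repeated sampling of 1 culture, so the p-values reflect variation among these samples alone, and that may be technical. SKOV3 is a single line, and of 8 markers chosen for it 7 were measured, among them the Müllerian factor gene PAX8 (10.18 in 2D and 10.34 in 3D) and the simple keratin gene KRT18 (9.61 and 10.06). Other markers were dimmer, with KRT8 at 5.66 in 2D and 5.82 in 3D, KRT7 at 6.07 and 5.13 and MSLN at 6.63 and 7.03. Of the 7 markers 3 changed in 3D, the epithelial adhesion gene EPCAM by 1.76 and the keratin gene KRT19 by 2.70 upwards and KRT7 by -0.93 (adjusted p = 0.000159, 0.000495 and 0.00532), and their part in the ZNF results was not tested. Of the markers of other cell types, the endothelial gene PECAM1 read 3.68 in 2D and 4.95 in 3D (adjusted p = 0.00166), and CD14, VWF and DCN gave means of 2.45 to 4.43 in both groups, against array medians of 4.30 to 4.37. The part of the PECAM1 rise was not tested either, and in bulk RNA fewer cells of a type and less RNA per cell cannot be told apart.

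Most ZNF genes encode nuclear proteins with rows of C2H2 zinc fingers, small folds in which a pair of cysteines and a pair of histidines hold a zinc ion and which read DNA bases. Many of them also carry a KRAB domain, which recruits the corepressor TRIM28 and, through it, the histone methyltransferase SETDB1 and heterochromatin proteins, and many KRAB zinc finger proteins are known for binding and silencing retrotransposons. The genes multiplied by local duplication, and large clusters of them lie on chromosome 19. A smaller number have other roles, in chromatin complexes, in RNA and ribosome biology or as conserved developmental regulators.

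Few expressed ZNF genes passed the test between the cultures. Of the 261 genes 12 fell and 2 rose in 3D at an adjusted p under 0.05 (limma, Benjamini-Hochberg over all 14884 genes). This is 5.36% of them, beside 10.0% of all genes and 14.7% of the 6750 genes that passed the same level. The falls made up 4.60% of the ZNF genes, against 4.77% of all genes and 7.44% of genes of the same level. The rises made up 0.766%, against 5.23% and 7.23%. The difference between these shares was not tested. The median SE of the change was 0.119 over the ZNF genes and 0.109 over genes of the same level. Whether this lowered the share of ZNF genes called was not tested. The median change (3D minus 2D, log2) was -0.04 over the ZNF genes, -0.01 over all genes and -0.001 over genes of the same level, and the middle 50% of ZNF changes lay between -0.21 and 0.10. Of the 261 genes 2, ZNF699 and ZNF185, passed with a change of at least 2-fold, beside 2.88% of all genes.

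**Figure D1:**
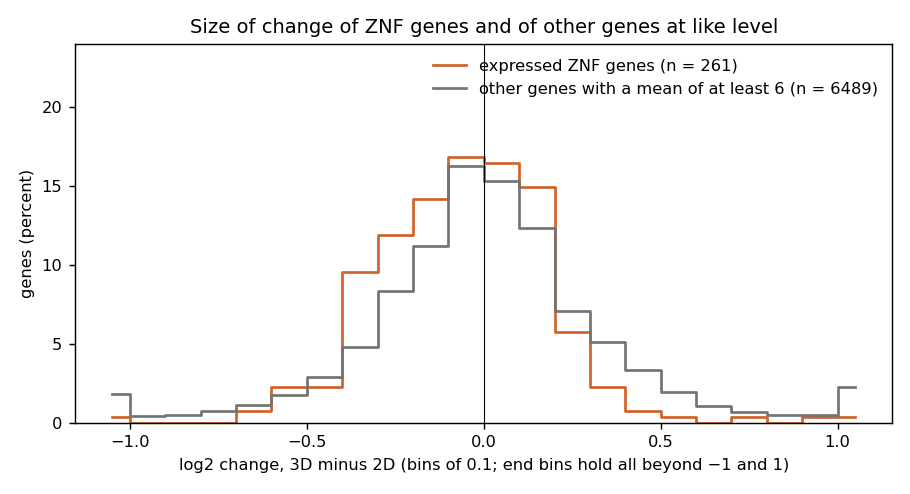
Share of genes (percent) in bins of 0.1 of the log2 change, 3D minus 2D, for the 261 expressed ZNF genes and for the other 6489 genes with a mean of at least 6; the end bins hold everything beyond -1 and 1. The ZNF curve has less in both tails, and its extremes are ZNF699 at -1.87 and ZNF185 at 1.35.

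The 95% confidence interval of the change lay wholly within 1.5-fold in either direction for 192 of the 247 genes that did not pass, and it reached beyond 1.5-fold for the other 55. All 3 arrays of 3D lay below all 3 of 2D for 62 ZNF genes (23.8%, beside 15.3% of all genes and 23.1% of genes of the same level) and above them for 12 (4.60%, beside 13.8% and 19.2%). Another count left out 3D replicate 1, which was chosen after its values were seen. The groups then did not overlap for 69 genes with 3D lower and 70 with 3D higher. For all genes the shares were 23.1% and 23.5%, and at the same level 27.5% and 34.5%. Groups of fewer arrays separate more easily, and the count was not made without any other array. The median change turned to 0.02 in that fit, beside 0.03 at the same level.

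The largest fall belonged to ZNF699, a KRAB zinc finger gene of chromosome 19 that is the human counterpart of the Drosophila gene hangover. It read 8.30, 8.27 and 8.17 on the 2D arrays and 6.13, 6.44 and 6.56 on the 3D arrays. The groups were far apart, with a difference of -1.87 ± 0.13 (SE, n = 3 per group, adjusted p = 0.000221), which is 3.65-fold. The largest rise was that of ZNF185, which differs from its namesakes in that its protein is a LIM-domain protein associated with the actin cytoskeleton. ZNF185 read 7.55, 7.46 and 7.38 in 2D and 8.62, 8.82 and 8.99 in 3D, again without overlap, a rise of 1.35 ± 0.12 (SE, n = 3, adjusted p = 0.000529) or 2.55-fold. Both genes kept their calls without any single array (adjusted p up to 0.00283 and 0.00452).

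The other riser, ZNF808, is a KRAB zinc finger gene of chromosome 19 needed for development of the pancreas. Its values were 6.64, 6.51 and 6.34 in 2D and 6.95, 7.36 and 7.39 in 3D, with 3D replicate 1 nearest to the controls. It rose by 0.73 ± 0.15 (SE, n = 3, adjusted p = 0.0203), and the call was lost without 2D or 3D replicate 2 or 3 (adjusted p up to 0.0805).

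The start regions of 4 genes are shown because they carry the largest fall, both rises and a fall shared with a neighbouring gene. Each is the first start listed for the gene in the RefSeq promoter table (GRCh38.p14) and covers 300 bases, most of them upstream of the start, 5′ to 3′ on the gene's strand, with CG dinucleotides in capitals. ZNF699 is at chr19:9309789-9310088, minus strand, ZNF582 at chr19:56393485-56393784, minus strand, ZNF808 at chr19:52527418-52527717, plus strand, and ZNF185 at chrX:152914182-152914481, plus strand.
ZNF699: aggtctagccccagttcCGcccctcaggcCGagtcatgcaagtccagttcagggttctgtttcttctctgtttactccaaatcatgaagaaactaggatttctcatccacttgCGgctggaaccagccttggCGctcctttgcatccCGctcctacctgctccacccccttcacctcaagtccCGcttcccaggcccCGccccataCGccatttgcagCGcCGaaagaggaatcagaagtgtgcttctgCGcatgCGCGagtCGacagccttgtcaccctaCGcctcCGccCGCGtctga
ZNF582: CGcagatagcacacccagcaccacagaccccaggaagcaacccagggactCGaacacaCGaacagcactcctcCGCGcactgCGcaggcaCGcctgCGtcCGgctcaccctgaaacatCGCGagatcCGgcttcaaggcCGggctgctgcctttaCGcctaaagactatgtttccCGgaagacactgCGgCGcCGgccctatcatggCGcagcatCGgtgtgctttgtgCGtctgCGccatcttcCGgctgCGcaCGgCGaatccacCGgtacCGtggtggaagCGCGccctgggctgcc
ZNF808: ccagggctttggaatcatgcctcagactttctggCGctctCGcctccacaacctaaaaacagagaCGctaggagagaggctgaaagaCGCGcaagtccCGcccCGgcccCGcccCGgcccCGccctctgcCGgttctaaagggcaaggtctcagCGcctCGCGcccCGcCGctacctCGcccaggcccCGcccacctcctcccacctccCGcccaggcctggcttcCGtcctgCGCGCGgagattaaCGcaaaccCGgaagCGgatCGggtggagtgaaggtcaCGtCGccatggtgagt
ZNF185: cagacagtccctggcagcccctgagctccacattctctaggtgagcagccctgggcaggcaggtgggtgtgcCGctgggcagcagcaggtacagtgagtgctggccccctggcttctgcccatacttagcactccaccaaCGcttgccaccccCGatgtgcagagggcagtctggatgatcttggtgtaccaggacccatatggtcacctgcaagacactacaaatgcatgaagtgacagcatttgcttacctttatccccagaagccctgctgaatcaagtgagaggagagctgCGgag

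The windows of ZNF699, ZNF582 and ZNF808 hold 18, 30 and 29 CG dinucleotides, whereas that of ZNF185 holds 4. The table lists 4 starts for ZNF185, and the farthest downstream of them has 35, so which start the cells used bears on this count and is not given by the array. Among the 231 expressed ZNF genes with a promoter in the table the median was 23.0, against 14.0 over 27305 promoters and 27.0 over the measured genes of the same level. The letters CCGGAAG, a core that ETS-family factors are known to bind, occurred on either strand in 96 of the 231 windows (41.6%), beside 21.0% at the same level and 10.7% of all promoters. TATAAA occurred in 6 (2.60%, beside 4.61% at the same level and 12% of all), likewise on either strand; neither string contains the other. Of the 10 fallers with a promoter 4 held CCGGAAG, a share of 40.0%, close to that of all expressed ZNF genes. Paralogs that arose by duplication can share promoter sequence, so these windows are not independent of each other.

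**Figure D2:**
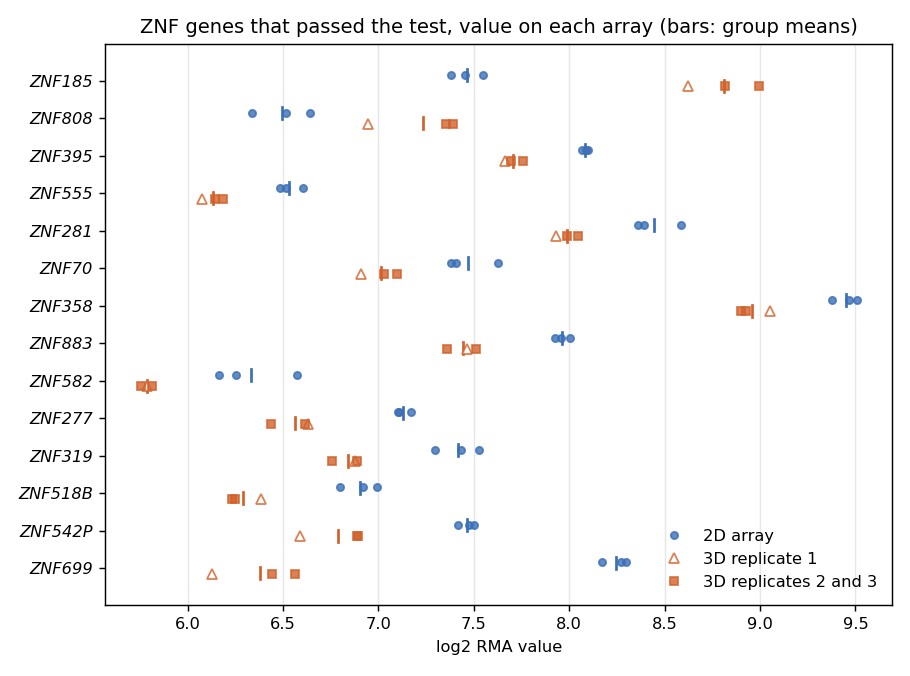
Log2 RMA values (x axis) on each array for the 14 expressed ZNF genes that passed the test, with circles for 2D arrays, an open triangle for 3D replicate 1, squares for the other 3D arrays, and bars for group means. No gene's groups overlap; ZNF699 has the widest gap downwards, and ZNF185 upwards.

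Of the fallers on chromosome 19, ZNF542P and ZNF582 are neighbours in map order. ZNF542P, a transcribed pseudogene, read 7.47, 7.50 and 7.42 in 2D and 6.59, 6.89 and 6.89 in 3D, a fall of 0.67 on the log2 scale (adjusted p = 0.0092). ZNF582, whose promoter methylation is used as a marker in cervical cancer screening, read 6.17, 6.57 and 6.25 in 2D and 5.79, 5.76 and 5.81 in 3D, a change of -0.54 ± 0.12 (SE, n = 3, adjusted p = 0.0316). ZNF582 was the only gene called whose mean lay above 6 in one culture and below it in the other, out of 10 such genes. Leaving out any array other than 2D replicate 1 ended its call (adjusted p up to 0.111), while that of ZNF542P held. The next genes on either side, ZSCAN5A (0.12 ± 0.11, SE) and the divergent transcript ZNF582-DT (-0.19 ± 0.12), did not pass. ZNF555 and ZNF358, both on the short arm, changed by -0.40 ± 0.09 and -0.49 ± 0.09 (SE, adjusted p = 0.0316 and 0.017). The ZNF555 call ended when any array other than 3D replicate 1 was left out (up to 0.107), and that of ZNF358 without 2D or 3D replicate 2 or 3 (up to 0.0772).

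The chromosomal position of the genes was not part of the rule. Of the 261 genes 137 lie on chromosome 19, 17 on chromosome 16 and 11 on chromosome 1. On chromosome 19 5 genes fell and 1 rose (4.38%), and on the other chromosomes 7 fell and 1 rose (6.45%), beside 10.0% of all genes. The median change was 0.01 on chromosome 19 and -0.10 elsewhere, and without 3D replicate 1 these medians were 0.09 and -0.04. The 406 other genes of chromosome 19 with a mean of at least 6 had a median of 0.03, and 10.8% of them passed. Among 61 pairs of expressed ZNF genes that are adjacent among the measured genes of chromosome 19, 43 pairs changed in the same direction, counting changes that did not pass, and 1 pair, ZNF542P with ZNF582, had both genes called. The changes of the pairs correlated at r = 0.31, across genes read on the same arrays. A gene can belong to more than 1 pair, and pairs of other genes were not counted. These values therefore have no background to be set against. The genes next to ZNF699 did not pass, at -0.20 ± 0.12 (SE) for ZNF317 and -0.30 ± 0.11 for ZNF559, and next to ZNF808 the values were -0.33 ± 0.11 for ZNF578 and 0.34 ± 0.27 for ZNF701. Zinc finger genes of one cluster can be close in sequence, and whether probe sets picked up paralogs was not tested.

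**Figure D3:**
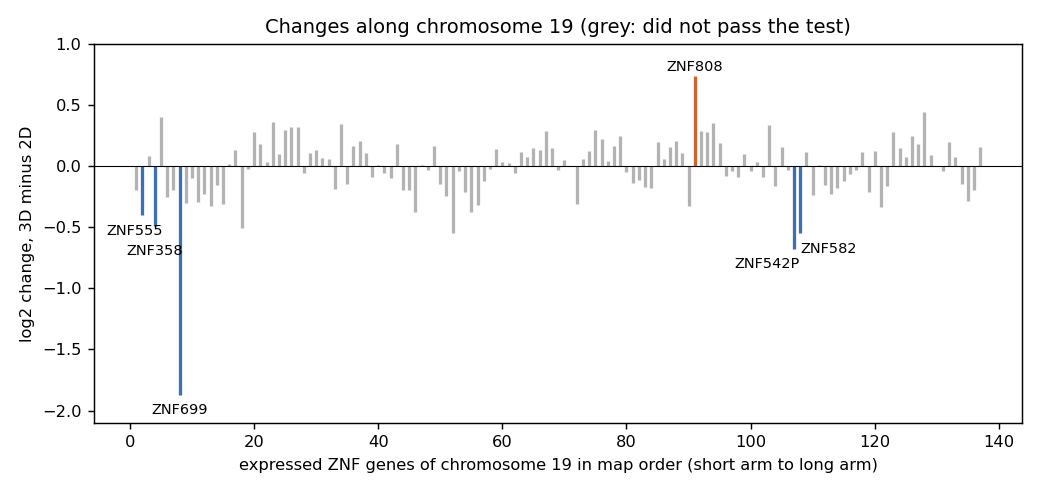
Log2 change, 3D minus 2D (y axis), of the 137 expressed ZNF genes of chromosome 19 in map order (x axis, rank), with fallers that passed the test in blue, the riser in orange and the rest in grey. ZNF542P and ZNF582 stand side by side, and ZNF699 at -1.87 stands among neighbours with far smaller changes.

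Genes with roles outside KRAB repression were read in 4 lists. Among partners of chromatin complexes 7 of 9 listed genes were expressed, and 1 of the 7 fell (14.3%, near the 14.7% of genes of the same level). Of the 2 dimmer genes of the list ZNF462 also fell, from 4.88 to 3.70 (adjusted p = 0.00261). The expressed faller was ZNF518B, which interacts with the histone methyltransferase EHMT2 (G9a). It read 6.99, 6.80 and 6.92 in 2D and 6.38, 6.23 and 6.25 in 3D, a change of -0.61 ± 0.10 (SE, n = 3, adjusted p = 0.00817), and it kept its call without any single array. ZNF644, another partner of that enzyme (-0.33 ± 0.10, adjusted p = 0.0889), and ZNF687, of a complex with ZMYND8 (-0.30 ± 0.10, adjusted p = 0.102), had groups that did not overlap but did not pass. ZNF217, a corepressor component amplified in several carcinomas, gave -0.26 ± 0.10 (adjusted p = 0.16). The list's median was -0.26, against -0.04 over all expressed ZNF genes.

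Of 11 expressed genes of the RNA, ribosome and spindle list 1 fell and 0 rose (limma; 0 higher and 3 lower at an unadjusted p under 0.05), which is 9.09%, beside 14.7% of genes of the same level. The list's median was -0.13. Below the level, ZNF385B of this list rose from 4.48 to 5.24 (adjusted p = 0.0395), and ZNF706 did not pass (0.04 ± 0.14). The faller was ZNF277, whose protein binds the ribosomal protein RPS2. It read 7.17, 7.11 and 7.10 in 2D and 6.63, 6.44 and 6.61 in 3D, a change of -0.57 ± 0.10 (SE, n = 3, adjusted p = 0.00992), which held without any single array. ZNF346, a binder of double-stranded RNA (-0.33 ± 0.10, adjusted p = 0.0847), ZNF622, a ribosome assembly factor (-0.25 ± 0.09, adjusted p = 0.142), and ZNF598, the ubiquitin ligase that senses collided ribosomes (-0.24 ± 0.14, adjusted p = 0.393), did not pass. Changes were negative for 8 of the 11 genes. Among the others, ZNF330 (0.23 ± 0.11, adjusted p = 0.261) and ZNF385A (0.19 ± 0.10, adjusted p = 0.286) did not pass either. ZNF207, a spindle assembly protein and the expressed ZNF gene with the highest mean level, read 9.76 ± 0.06 in 2D and 9.76 ± 0.04 in 3D (SD, n = 3).

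All 12 listed activators and repressors of broad sets of promoters were expressed, and 2 of them fell while 0 rose (limma; 0 higher and 3 lower at an unadjusted p under 0.05), which is 16.7%, near the 14.7% of genes of the same level. ZNF281, a GC-box binding factor known to promote the epithelial to mesenchymal transition, read 8.58, 8.36 and 8.39 in 2D and 7.93, 7.99 and 8.05 in 3D (-0.46 ± 0.10 SE, adjusted p = 0.0287). ZNF395, known as a hypoxia-induced factor, read 8.07, 8.10 and 8.09 in 2D and 7.66, 7.76 and 7.70 in 3D (-0.38 ± 0.09, adjusted p = 0.0317). In both genes the spread within each culture was smaller than the gap between cultures, yet each call ended on leaving out any array other than 3D replicate 1 (highest adjusted p 0.103 and 0.116). ZNF143, an activator of many housekeeping and small nuclear RNA promoters, gave 0.06 ± 0.10 (adjusted p = 0.779), and ZNF148, a binder of GC-rich promoters, -0.05 ± 0.09 (adjusted p = 0.833). The list's median was -0.04.

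Of the developmental and epithelial regulators 4 of 12 were expressed, and 1 of them, ZNF185, rose, too few genes to set beside the 14.7% of genes of the same level. ZNF703, an epithelial corepressor gene, gave 0.01 ± 0.11 (adjusted p = 0.982) and its relative ZNF503 -0.27 ± 0.09 (adjusted p = 0.103). The list also holds ZNF165 and ZNF423, which lie below the level and are no part of the 261. The cancer-testis gene ZNF165 rose by 1.33 from 4.67 (adjusted p = 0.00278). ZNF423, a regulator of fat and nerve cell development, rose by 0.77 from 5.33 (adjusted p = 0.00266). Both were named after their values were seen. Over the 11 measured genes of the list 3 rose and 0 fell (27.3%, beside 10.0% of all genes), which again is few genes. In all, 4 of 210 dimmer ZNF genes rose and 5 fell, or 4.29%, beside 10.0% of all genes. Without 3D replicate 1 the number called was 15, while the share of all genes called was 12.8%.

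The remaining fallers belong to none of these lists. ZNF319, of chromosome 16, fell from 7.42 ± 0.12 to 6.84 ± 0.07 (SD, n = 3, adjusted p = 0.0115). ZNF883, of chromosome 9, fell from 7.96 ± 0.04 to 7.44 ± 0.08 (adjusted p = 0.0113). Both calls were lost without 3D replicate 2 (adjusted p of 0.0564 and 0.0589). ZNF70, of chromosome 22, fell from 7.47 ± 0.13 to 7.01 ± 0.10 (adjusted p = 0.0372), a call lost without any one of the 6 arrays (up to 0.114). The other genes of highest level were ZNF841 (9.53 over all arrays), ZNF146 (9.40), whose protein consists almost wholly of zinc fingers, and ZNF121 (9.23), with changes of -0.11 ± 0.14, -0.20 ± 0.10 and -0.23 ± 0.13 (SE), and none of them passed. At the edge of the level rule, ZNF69 (6.001) and ZNF10 (6.016) lay just inside with changes of -0.50 and 0.53, and ZNF837 (5.999) and ZNF37A (5.992) just outside with -0.07 and -0.75. ZNF10 is the source of the KRAB domain widely used in engineered repressors.

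Another list held KRAB cofactors together with general heterochromatin and DNA methylation genes, all called cofactor genes here. Whether the general genes act with KRAB proteins in these cells was not tested. Of 31 listed genes 27 were measured, and 1 fell while 0 rose (limma, with 1 higher and 4 lower at an unadjusted p under 0.05). This is 3.70%, beside 10.0% of all genes. Most of the list had a mean of at least 6, a level at which 14.7% of genes passed. TRIM28, the KRAB corepressor, read 9.87, 10.04 and 9.97 in 2D and 10.04, 10.00 and 10.02 in 3D, so that the groups overlapped (0.06 ± 0.09 SE, adjusted p = 0.776). SETDB1 was not analysed here. The gene that fell was DNMT3B, a de novo DNA methyltransferase, with 7.64, 7.70 and 7.60 in 2D and 6.42, 6.11 and 6.21 in 3D, a difference of -1.40 ± 0.11 (SE, n = 3, adjusted p = 0.000325) or 2.64-fold. UHRF1, which guides maintenance methylation, gave -0.48 ± 0.12 (adjusted p = 0.0505), and the maintenance enzyme gene DNMT1 0.27 ± 0.15 (adjusted p = 0.358). The histone methyltransferase gene SUV39H1 joined DNMT3B without 3D replicate 1 (0.55, adjusted p = 0.0467) but not with all arrays (0.40 ± 0.16, adjusted p = 0.186), and was named after its values were seen. The median change of the list was -0.02. In other C2H2 families (ZFP, ZSCAN, ZKSCAN, ZBTB, KLF and smaller ones), 7 of 138 genes rose and 10 fell, or 12.3%, beside the 10.0% of all genes. Of the 83 with a mean of at least 6, 2 rose and 9 fell, or 13.3%, beside 14.7% of all genes of that level. The number of 17 called genes among the 138 fell to 6 without 3D replicate 2 and to 7 without 3D replicate 3. Without 2D replicates 1, 2 and 3 it fell to 9, 10 and 9. The share of all genes called fell in these fits too, to 5.34% and 5.21% and to 6.18%, 6.19% and 5.89%.

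The 3D arrays differed from each other on the ZNF genes. Across the 261 genes, 3D replicates 2 and 3 correlated at 0.985 (Pearson, levels of the same genes, which share their probe sets), whereas 3D replicate 1 correlated at 0.933 with each of them, at 0.925 to 0.936 with the 2D arrays. The 2D arrays correlated at 0.960 to 0.975 among themselves. The median SD within 3D was 0.16 for ZNF genes and 0.11 for genes of the same level, and within 2D it was 0.11 and 0.10. The median ZNF gene lay 0.16 below its own mean on 3D replicate 1 and 0.03 and 0.05 above it on the other 3D arrays, against 0.07, 0.02 and 0.00 in 2D. On 3D replicate 1 the median gene of the same level lay at -0.07. This array was the lowest of the 3D arrays for 198 of 261 ZNF genes (75.9%, or 81.0% on chromosome 19 and 70.2% elsewhere), beside 60.1% of genes of the same level. Its part in the ZNF results is given by the fits without it.

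**Figure D4:**
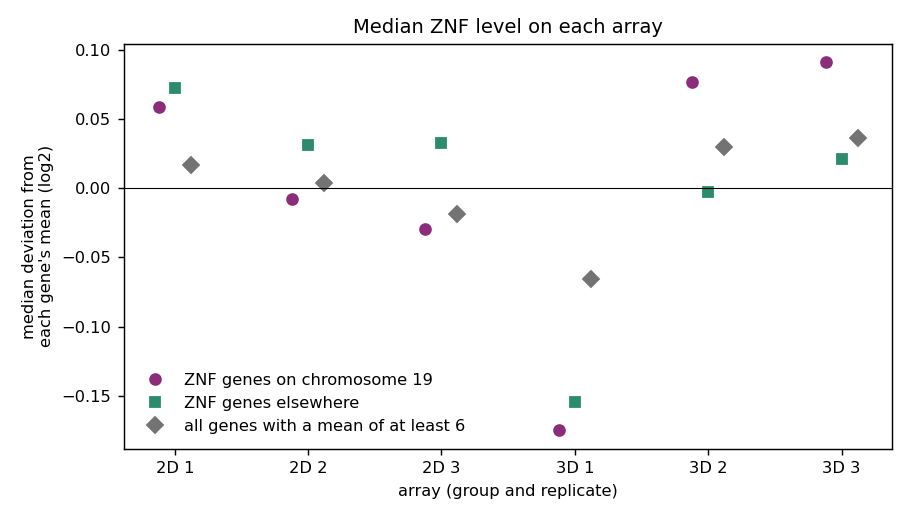
Median deviation (log2, y axis) of the ZNF genes of chromosome 19, the other expressed ZNF genes and all genes with a mean of at least 6 from each gene's own mean, for each array (x axis). On 3D replicate 1 the chromosome 19 and other ZNF genes lie at -0.17 and -0.15, below every other array.

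Without 3D replicate 1 the count of risers went from 2 to 13 (4.98%, beside 7.36% of all genes in that fit), and the count of fallers from 12 to 11 (4.21%, beside 5.40%). The shares among genes of the same level were not counted in that fit. The 2 risers and 10 of the fallers were called in both fits, and ZNF582 and ZNF70 were lost (adjusted p = 0.0511 and 0.0617). Of the 12 genes gained, 11 rose and 9 lie on chromosome 19, where 137 of all 261 genes lie. The array left out was the lowest of the 3D arrays for 75.9% of the ZNF genes, so leaving it out raises their 3D means. Apart from ZNF10 the genes gained were named after their values were seen.

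ZNF83 differed most among the 3D arrays. It read 7.69, 7.45 and 7.19 in 2D, and in 3D 6.42 on replicate 1 against 8.45 and 8.32 on the others, so that one 3D array lay below and the other two above the controls. Its change was 0.29 ± 0.49 (SE, adjusted p = 0.803) with all arrays and 0.94 ± 0.15 (adjusted p = 0.0126) without replicate 1. ZNF141 read 6.67, 5.69 and 6.40 in 2D and 6.38, 7.68 and 7.59 in 3D, and its change was 0.96 (adjusted p = 0.174) with all arrays and 1.38 ± 0.27 (adjusted p = 0.0226) without that array. ZNF91 and ZNF93, known for silencing retrotransposons, and ZNF90 passed without that array but not with all arrays. ZNF91 read 6.08, 5.86 and 5.88 in 2D and 5.66, 6.38 and 6.42 in 3D, ZNF93 read 6.95, 6.76 and 6.70 against 6.70, 7.38 and 7.30, and ZNF90 read 6.42, 6.06 and 6.26 against 5.99, 6.81 and 6.90. In ZNF90 and ZNF91 replicate 1 lay below all 2D arrays, and in ZNF93 level with the lowest of them. In each of the 3 genes the other 3D arrays lay above all 2D arrays. Without replicate 1 the changes were 0.46 for ZNF91, 0.54 for ZNF93 and 0.61 for ZNF90 (adjusted p = 0.0391, 0.0257 and 0.0282). ZNF10, ZNF234, ZNF256, ZNF414, ZNF577 and ZNF611 rose in that fit by 0.41 to 0.71, and ZNF500 changed by -0.41.

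**Figure D5:**
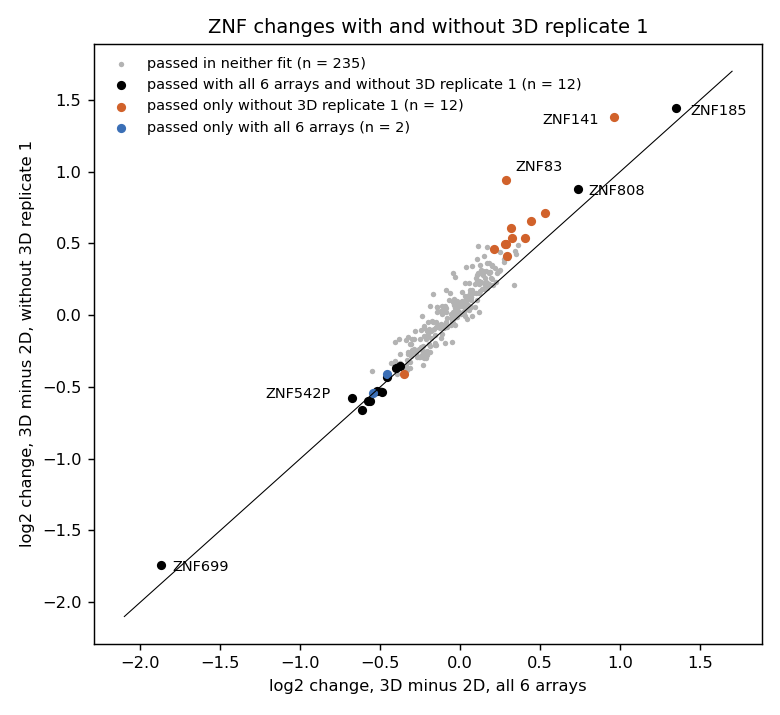
Log2 change, 3D minus 2D, of each of the 261 genes with all 6 arrays (x axis) against the change without 3D replicate 1 (y axis); the line marks equal values. Most genes lie above the line, ZNF83 and ZNF141 the farthest, while ZNF699 and ZNF185 pass in both fits.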

How the data were processed

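RNA from 3 attached (2D) and 3 low-attachment (3D) SKOV3 samples was measured on 1 array each. The authors deposited log2 values of 53617 probe sets made with RMA, per the submitters' processing notes; its version, probe grouping and filters: not given in the sources used here. That the scale is log2 follows from the range of the values. The platform annotation is that of a whole-transcript array, whereas the labels name a 3' IVT labelling kit, so which part of a transcript each value reflects is unsettled. RMA compresses changes of dim probe sets, and the number of arrays limits precision. Platform annotation gave 16098 probe sets 1 symbol, 0 several and 37519 none; all 16098 identifiers matched the RefSeq gene table (GRCh38.p14), used for chromosome and map order. Genes (14884) were read on the probe set with the highest mean; 253 of the 261 ZNF genes had 1 probe set. Of the 8 with 2, both changed in the same direction.

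The genes and lists were chosen with earlier results of these data known. Groups were compared with limma 3.58.1 in R 4.3.3 (group only, moderated variance, two-sided, adjusted over all genes, threshold 0.05). Named were up to 12 rises and falls past the threshold without overlap, the 4 highest levels, up to 2 per list and the level's edges, and in the cofactor list TRIM28, SETDB1 and up to 4 that passed; others are marked as named after their values were seen or are neighbours or list members given with their values. The planned grouping by finger number and KRAB box was not run, since no protein sequences were used here. In simulated data for 14884 genes with the real spread, 44% of genes changed 1.5-fold and 94% of those changed 2-fold were recovered, and 10 of 148 calls were false. Only 200 genes were changed there, and the noise was independent between genes. In the real data 10.0% of genes were called, and 3D replicate 1 differed over many genes at once. The simulated shares therefore check the code and do not give the power or error rate of this comparison.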

Additional observations from a re-analysis of the deposited data

How the results depend on the processing

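Only 5 of the 14 called genes (ZNF185, ZNF699, ZNF277, ZNF518B and ZNF542P) kept their calls in every fit without 1 array, and 9 lost them in at least 1. Leaving out single arrays gave 1 to 13 risers, 4 to 11 fallers and a median of -0.08 to 0.02, and 1 to 2 called cofactor genes, 6 to 18 genes of other families and 6 to 15 dimmer ZNF genes. Each of the highest values came without 3D replicate 1, and the fewest fallers without 3D replicate 2. In these fits 1.92% to 9.20% of the ZNF genes were called, beside 5.21% to 12.8% of all genes. Both shares were highest without 3D replicate 1. The replicate block left 1 riser and 3 fallers (ZNF185, ZNF518B, ZNF542P and ZNF699) and 7 called genes of other families. In that fit 1.53% of the ZNF genes were called, beside 5.11% of all genes. Whether the replicate numbers pair the arrays is not stated in the labels. Deviations of same-numbered arrays from their group means correlated at -0.279, -0.0568 and -0.183, and no array correlated best with its own number. Deviations within a group of 3 arrays depend on each other, so these values cannot exclude a shared day or batch. Testing all probe sets singly gave 1 riser and 3 fallers (1.53%, beside 4.44% of all genes). A test against a 1.2-fold limit gave 1 and 1 (0.766%, beside 3.98%). A per-gene test in which each group kept its own variance gave 0 and 0, beside 82 of all genes (0.551%). At an unadjusted p under 0.05 that test gave 4 higher and 30 lower ZNF genes. A level of at least 5 gave 4 risers among 390 genes and a level of at least 7 gave 1 among 122, with 13 and 8 fallers. That is 4.36% and 7.38% called, and the shares of all genes at these levels were not counted. A repeated quantile normalization called 2 cofactor genes. For the losses under settings that neither leave out arrays nor change the genes tested the cause was not tested. The ZNF counts stayed within 1.5 times of the main ones after centring on array medians or repeated quantile normalization, with a filter on dim probe sets, with the mean or most variable probe set, and with a trended robust variance, and all 14 genes kept their direction in every alternative run.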
